A study of Mus musculus with 6 samples.

Results

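Cholesterol synthesis was followed through 9 genes, 7 of them sterol synthesis enzymes (Hmgcs1, Idi1, Fdps, Fdft1, Sqle, Cyp51 and Msmo1) and 2 of them regulators (Insig1 and Srebf2). They were chosen by gene symbol, and all 9 were found among the 55367 symbols of the deposited expression table. Cholesterol does not cross the blood-brain barrier in useful amounts, so brain cells make their own from acetyl-CoA. The mevalonate steps build farnesyl diphosphate, the squalene steps join and close it into lanosterol, and the sterol steps trim lanosterol to cholesterol. When membrane sterol is low, the transcription factor encoded by Srebf2 is released from the endoplasmic reticulum and switches on nearly all of these enzyme genes together with Insig1, whose protein holds the factor back. In the adult brain astrocytes are regarded as the main makers and oligodendrocytes use large amounts for myelin, while mature neurons rely in part on cholesterol delivered by astrocytes.

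The samples were 6 Smart-seq2 libraries from the mouse hippocampal dentate gyrus, 3 from mice without running (NR) and 3 from mice with 28 days of voluntary running (Run). All mice had gone through learned helplessness, a procedure of inescapable stress, and all carried Fos-iCreERT2 and a Rosa26-LSL-tdTomato reporter (genotype TRAP2;Ai9). Running is the difference that the labels name. Cre activity in this line follows the Fos promoter and marks any cell that expresses Fos while tamoxifen acts, whatever its type, and tdTomato-positive cells were then sorted. The design text ties the tagging to learned helplessness, and the timing of tamoxifen is not given in what was used here. The labels call the libraries single-cell, but the sources used here do not say how many cells or animals stand behind each, nor the strain background or age. The p-values therefore judge the group difference against library-to-library spread, some of which may be technical and which need not reflect variation between animals.

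Markers of cells other than the labelled neurons were present in all libraries. Of 10 astrocyte markers 9 reached 1 FPKM (a fragment count scaled for transcript length and library size) in all 6 libraries, with summed levels of 4079 to 6291 FPKM in NR and 3456 to 8943 in Run. The 7 general neuron markers summed to 273 to 781 FPKM in NR and 556 to 989 in Run, and the 6 granule neuron markers to 0.285 to 183 and 39.7 to 279, with 5 of the 6 listed at 0 in NR replicate 1. Oligodendrocyte markers (9 genes) summed to 257 to 1512 FPKM in NR and 183 to 996 in Run, microglial markers (8 genes) to 55.04 to 553 and 179 to 839.7, endothelial markers (6 genes) to 775 to 2012 and 839 to 1339, and mural markers (5 genes) to 489 to 1438 and 317 to 743. Precursor markers (5 genes, Olig2 listed at 0 everywhere) summed to 0 to 56.3 and 13.8 to 38.8 FPKM, and choroid plexus and ependymal markers (4 genes, Folr1 listed at 0 everywhere) to 50.3 to 158 and 23.1 to 81.7. Which of these cells gave the sterol transcripts was not tested, and fewer cells of a type cannot be told apart from less RNA per cell. Between 5426 and 7355 genes reached 1 FPKM in a library. FPKM values carry no read totals, so the depth is unknown, and because 2 of 12 genes that every cell uses (Tbp and Polr2a) were at 0 in some library, a 0 is reported below only as listed at 0.

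Promoters are shown because sterol-responsive promoters typically pair a sterol regulatory element with CCAAT and GC boxes. Whether the motifs bear on the members' levels in these libraries was not tested. RefSeq promoter windows of the mm10 build (GRCm38.p6), 250 bases before to 50 after the start, were at hand for 6 members: Hmgcs1, Idi1, Msmo1, Cyp51, Insig1 and Srebf2. The core letters TCACNCC of the sterol element were found, on either strand, in 3 of the 6 windows (Hmgcs1, Msmo1 and Srebf2) and in 15.6% of all 32851 windows of the table. CCAAT was found in all 6 and in 37.4% of all windows, and GGGCGG in all 6 and in 35.7%. Matches to different motifs overlapped in none of the 6. The stretches before the first annotated start of Hmgcs1, Srebf2 and Insig1 are printed with matches to the 3 motifs, on either strand, in capitals.
Hmgcs1, chr13:119690101-119690350, plus strand: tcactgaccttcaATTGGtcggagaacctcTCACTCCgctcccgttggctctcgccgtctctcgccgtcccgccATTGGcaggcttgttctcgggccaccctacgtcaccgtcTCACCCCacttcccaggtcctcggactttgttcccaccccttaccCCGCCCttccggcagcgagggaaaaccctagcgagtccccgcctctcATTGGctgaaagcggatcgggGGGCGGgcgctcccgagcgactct
Srebf2, chr15:82147019-82147180, plus strand: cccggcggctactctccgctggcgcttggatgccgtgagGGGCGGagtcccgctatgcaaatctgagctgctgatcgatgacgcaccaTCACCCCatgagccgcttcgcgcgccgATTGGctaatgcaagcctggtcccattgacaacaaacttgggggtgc
Insig1, chr5:28071162-28071362, plus strand: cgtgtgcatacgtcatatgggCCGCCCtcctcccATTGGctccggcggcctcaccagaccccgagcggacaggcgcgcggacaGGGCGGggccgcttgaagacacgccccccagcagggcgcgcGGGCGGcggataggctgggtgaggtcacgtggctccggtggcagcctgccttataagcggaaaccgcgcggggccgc
In the Hmgcs1 stretch the sterol element letters occurred 2 times, CCAAT 3 times and GGGCGG 2 times. The Srebf2 stretch held each motif 1 time. The Insig1 stretch held CCAAT 1 time and GGGCGG 3 times and no TCACNCC, which says only that these letters were not in it. These matches are descriptions of sequence and not evidence of binding.

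Among the mevalonate members, Hmgcs1 (chromosome 13, 119690379 to 119708260), the cytosolic synthase that makes HMG-CoA, had 242, 44.2 and 71.8 FPKM in the NR libraries (replicates 1, 2 and 3, the order kept throughout) against 78.4, 46.0 and 115 FPKM in the Run libraries. The NR libraries spanned the whole range of the Run libraries and beyond, with NR replicate 1 the highest and NR replicate 2 the lowest of all 6. The group means were 119 ± 107 and 79.9 ± 34.7 FPKM (SD, n = 3 each), and the difference (Run minus NR, in log2 of FPKM + 1 like all differences here) was -0.29 ± 0.81 (SE; limma adjusted p = 0.983). Without NR replicate 1 the difference was 0.40, and without Run replicate 2 it was 0.05.

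Idi1 (chromosome 13, 8885501 to 8892451), the isomerase that readies isoprene units for joining, had 174, 26.4 and 29.2 FPKM in the NR libraries against 25.0, 2.09 and 94.8 in the Run libraries. It varied most among the members detected everywhere, 83.4-fold between NR replicate 1 and Run replicate 2, and the groups overlapped. Its difference was -1.41 ± 1.48 (SE; limma adjusted p = 0.978), and it moved between -2.55 and -0.07 when single libraries were left out.

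The level of Idi1 is uncertain because of a copy of its coding sequence. The processed pseudogene Gm13502 (chromosome 2, 53696121 to 53696804) matched the Idi1 coding sequence without a mismatch over its whole 684 bases, so reads from this stretch cannot be assigned to 1 of the loci. Its first 90 bases, which Idi1 shares letter for letter, are printed to show the identity.
Gm13502, chr2:53696715-53696804, minus strand: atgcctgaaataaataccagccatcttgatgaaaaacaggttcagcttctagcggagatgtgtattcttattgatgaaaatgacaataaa
Gm13502 had 77.3, 13.2 and 12.6 FPKM in the NR libraries against 12.3, 0 and 34.5 in the Run libraries. In the 5 libraries where it was above 0 this was 36.4% to 50.1% of the Idi1 level. NR replicate 1 and Run replicate 3 were the highest libraries for both.

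Fdps (chromosome 3, 89093588 to 89101959), the synthase of farnesyl diphosphate at the branch point to sterols, ubiquinone and prenylated proteins, had 119, 54.3 and 74.1 FPKM in the NR libraries against 57.1, 30.5 and 192 in the Run libraries. The Run group held both the highest and the lowest library. Means were 82.5 ± 33.1 and 93.1 ± 86.5 FPKM (SD, n = 3 each) with a log2 difference of -0.17 ± 0.84 (SE; limma adjusted p = 0.987), which was 0.13 without NR replicate 1 and 0.42 without Run replicate 2. Its pseudogene Gm3571, 98.9% identical over 1062 bases, was listed at 0.989% to 3.87% of the Fdps level.

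**Figure D1:**
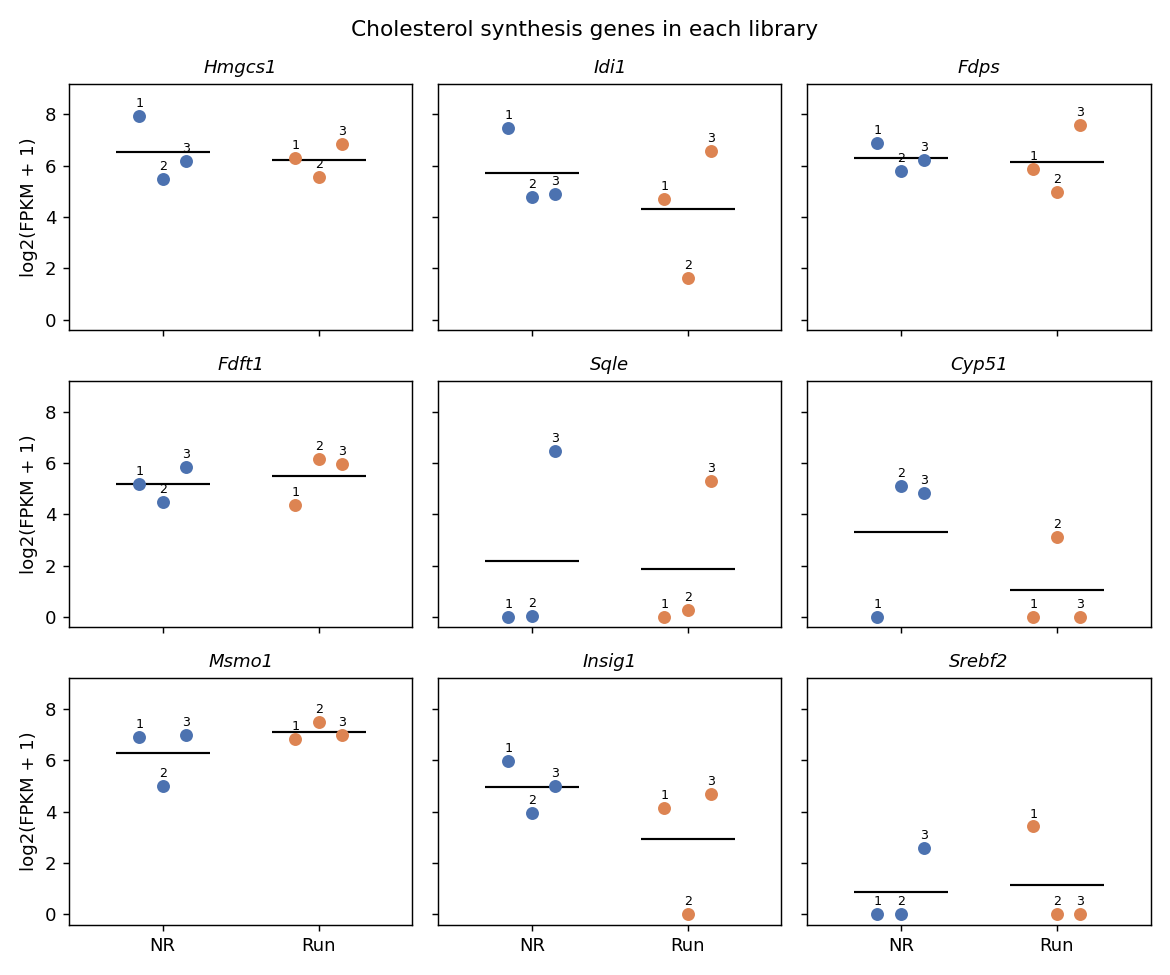
Level of each of the 9 cholesterol synthesis genes as log2(FPKM + 1), with 1 point per library (replicate number above it) and a line at the group mean of 3 libraries. The groups overlap for every gene, and Sqle, Cyp51 and Srebf2 are each at or near 0 in at least 1 library of each group.

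In the squalene and sterol steps, Fdft1 (chromosome 14, 63145150 to 63179578), squalene synthase and the first enzyme committed to sterols, had 34.98, 21.6 and 57.3 FPKM in the NR libraries against 19.8, 71.2 and 61.3 in the Run libraries. Run replicate 1 was the lowest library and Run replicate 2 the highest, so the NR values lay within the Run range. The log2 difference was 0.33 ± 0.87 (SE; limma adjusted p = 0.983), and it was -0.01 without NR replicate 2 and -0.01 without Run replicate 2. Transcripts of Fdft1 and of Ctsb, a lysosomal protease gene on the opposite strand, share 774 bases, and no source used here says whether counting kept the strands apart. Ctsb had 105, 115 and 14.7 FPKM in the NR libraries against 70.3, 74.2 and 61.6 in the Run libraries, with NR replicate 3 its lowest library but the highest NR library for Fdft1.

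Msmo1 (chromosome 8, 64718139 to 64733792), the monooxygenase that starts removal of methyl groups from the sterol ring, had 118, 30.8 and 125 FPKM in the NR libraries against 112, 179 and 128 in the Run libraries. Apart from NR replicate 2 the libraries lay close together, and Run replicate 2 was the highest. Means were 91.6 ± 52.8 and 139 ± 34.8 FPKM (SD, n = 3 each), with a log2 difference of 0.81 ± 0.71 (SE; limma adjusted p = 0.978). Without NR replicate 2 the difference was 0.16.

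Cyp51 (chromosome 5, 4081145 to 4104746), the lanosterol demethylase, was listed at 0, 33.3 and 27.8 FPKM in the NR libraries against 0, 7.74 and 0 in the Run libraries. It was thus found in 3 of the 6 libraries, and both groups held a 0. Its log2 difference of -2.27 ± 1.73 (SE; limma adjusted p = 0.978) was the lowest of the members tested, and it ranged from -3.93 to -1.38 without 1 library and from -3.41 with 0.1 added before logs to -1.43 with 5 added. Cyp51 overlaps Akap9 on the opposite strand, which had 17.7, 4.14 and 2.05 FPKM in NR and at most 0.0204 in Run, and whether the counts of these genes share reads was not tested. Sqle (chromosome 15, 59315077 to 59331192), squalene epoxidase and a rate-limiting enzyme of the pathway, had 0, 0.0433 and 88.5 FPKM in the NR libraries against 0, 0.221 and 39.0 in the Run libraries. It was high in replicate 3 of each group and at or near 0 in the other 4 libraries, too few for the test.

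Of the regulators, Insig1 (chromosome 5, 28071363 to 28078662), the endoplasmic reticulum anchor that blocks release of the sterol-regulated factor, had 62.1, 14.3 and 31.3 FPKM in the NR libraries against 16.8, 0 and 24.8 in the Run libraries. Its highest libraries were NR replicates 1 and 3 and it was listed at 0 in Run replicate 2, yet the groups overlapped. The log2 difference was -2.03 ± 1.55 (SE; limma adjusted p = 0.978), and it was -0.56 without Run replicate 2 and -3.13 with 0.1 added before logs. Srebf2 (chromosome 15, 82147181 to 82205379), which encodes the factor itself, was detected sparsely, at 0.000548, 0 and 5.09 FPKM in the NR libraries against 9.74, 0 and 0 in the Run libraries, and was not tested. It was at or above 1 FPKM in NR replicate 3 and Run replicate 1 alone, and how its level relates to those of the enzyme genes was not tested.

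Since FPKM is scaled by length, levels can be set side by side between members. The limits given above for Idi1 (copy Gm13502), Fdft1 (bases shared with Ctsb) and Cyp51 (overlap with Akap9) apply to this order too. By mean log2(FPKM + 1) over the 6 libraries the order was Msmo1 (6.70 ± 0.87, SD), Hmgcs1 (6.39 ± 0.91), Fdps (6.23 ± 0.92), Fdft1 (5.34 ± 0.78), Idi1 (5.01 ± 2.00), Insig1 (3.96 ± 2.07), Cyp51 (2.18 ± 2.48), Sqle (2.03 ± 3.03) and Srebf2 (1.01 ± 1.58). Of the neighbours in this order, Idi1 and Insig1 differed by more than the spread of their per-library difference (1.05 ± 0.75, SD), and the other 7 neighbouring pairs did not. Msmo1 lay above Fdft1 by 1.36 ± 0.67 (SD), and Hmgcs1 and Fdps were nearly level (0.16 ± 0.64). Together the members summed to 751, 225 and 511 FPKM in the NR libraries against 319, 336 and 655 in the Run libraries, between 0.0471% and 0.154% of a library's summed FPKM. The group means were 495 ± 263 and 437 ± 189 (SD, n = 3 each), so the groups overlapped fully. The log2 ratio of the group means, Run over NR, was -0.18, and it was 0.25 without NR replicate 1 and -0.60 without Run replicate 3.

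The members fell into differing library profiles, a pattern noticed after the values were seen. NR replicate 1 and Run replicate 3 were the highest pair of libraries for each of Hmgcs1, Idi1 and Fdps, and Run replicate 2 was the lowest for Idi1, Fdps and Insig1 and the second lowest for Hmgcs1. For Msmo1 and Fdft1 the order was different: Run replicate 2 was the highest library and Run replicate 3 the second highest. The 3 mevalonate members summed to 535, 125 and 175 FPKM in the NR libraries against 160.5, 78.6 and 402 in the Run libraries. The 4 squalene and sterol members summed to 153, 85.8 and 299 FPKM in the NR libraries against 132, 258 and 228 in the Run libraries. The ratio of mevalonate to later members was therefore 3.49, 1.46 and 0.586 in the NR libraries against 1.22, 0.305 and 1.76 in the Run libraries, with the highest and lowest ratio in libraries of different groups and wide overlap.

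Cell type markers also differed between these libraries. NR replicate 1, highest for Hmgcs1, Idi1 and Insig1, had the lowest summed general neuron (273 FPKM), granule neuron (0.285), microglial (55.04) and precursor markers (0) and the highest mural markers (1438 FPKM). Run replicate 2, highest for Msmo1 and Fdft1, had the highest summed astrocyte (8943 FPKM) and microglial markers (839.7) and the lowest mural (317) and choroid plexus and ependymal markers (23.1). Run replicate 3, second highest for Msmo1 and Fdft1, had 4201 FPKM of astrocyte markers, below NR replicates 1 and 3. NR replicate 3, the only library with all 9 members at 1 FPKM or more, had the highest oligodendrocyte (1512 FPKM), precursor (56.3) and choroid plexus and ependymal markers (158) and the lowest endothelial markers (775). Run replicate 1 had the lowest oligodendrocyte (183 FPKM) and astrocyte markers (3456) and the highest general neuron (989) and granule neuron markers (279). NR replicate 2, lowest for Hmgcs1 and Msmo1 and highest for Cyp51, had the highest endothelial markers (2012 FPKM). The part of cell makeup in the members' levels was not tested.

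**Figure D2:**
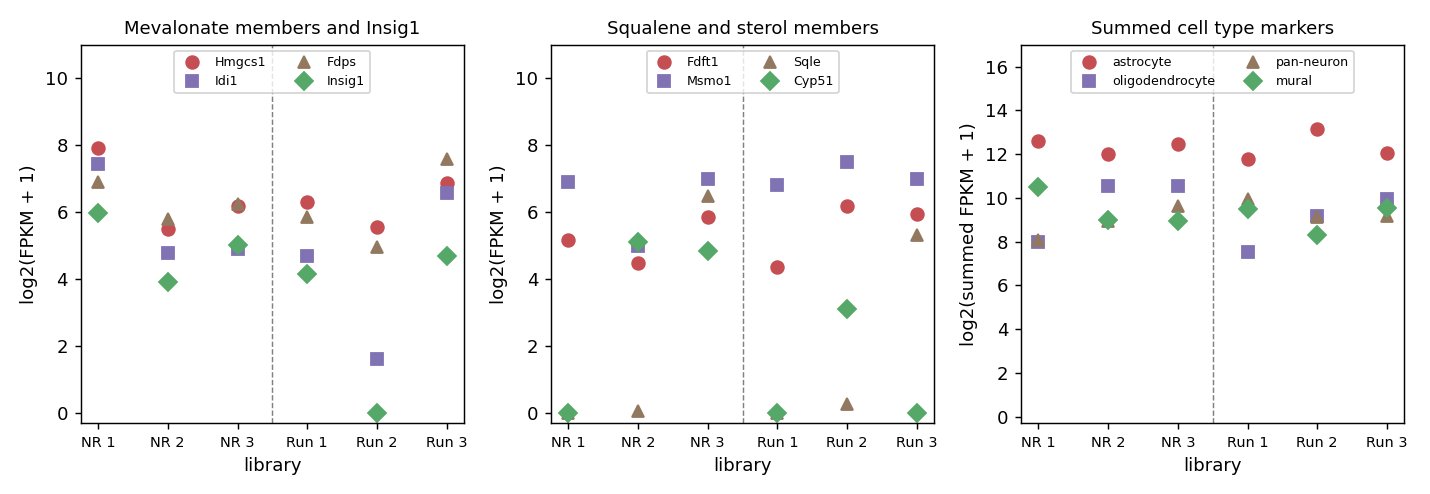
Levels by library, with 1 point per gene or marker list and a dashed line between NR and Run. Left, Hmgcs1, Idi1, Fdps and Insig1; middle, Fdft1, Msmo1, Sqle and Cyp51, both as log2(FPKM + 1); right, summed cell type markers as log2(summed FPKM + 1). NR 1 and Run 3 are high for Hmgcs1, Idi1 and Fdps, whereas Run 2 is the highest library for Msmo1 and Fdft1. Of the 4 marker lists drawn the astrocyte list has the highest sum in every library.

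The members' mean log2 profile had an SD of 0.79 over the 6 libraries. It averages all 9 members, those listed at 0 in some libraries included. It was highest in NR replicate 3 (5.46), the only library with all 9 at 1 FPKM or more, so detection as well as level shapes it. Among 1501 other genes at 1 FPKM or more in all libraries and with enough spread, the nearest profiles by root mean square difference after centring were those of Mmut, the mitochondrial methylmalonyl-CoA mutase (0.19 on the log2 scale), Tsg101 of the endosomal sorting machinery (0.30), the ribosomal protein gene Rpl13a (0.33), Gm50432 (0.33) and the histone gene H2bc4 (0.35). This is a description over 6 libraries that share their total scaling.

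The groups were compared to ask whether 28 days of running altered sterol synthesis transcripts in these sorted cells. No member passed the test. Of the 9 members 7 could be tested, that is, they reached 1 FPKM in at least 3 of the 6 libraries, and Sqle and Srebf2 could not. By limma 0 of the 7 reached an adjusted p under 0.05 (adjusted p from 0.978 to 0.987), where 0% of the 6155 genes tested did, and 0 of the 7 reached an unadjusted p under 0.05, where 4.94% (304 genes) did. When the difference also had to be 1 or more in size (log2), the count was again 0 of the 7, beside 2.42% of all tested genes with Run higher and 2.47% with Run lower. The groups did not overlap for 0 of the 7, against 8.95% of all tested genes. Differences were negative for 5 members and positive for Fdft1 and Msmo1, with a median of -0.29 beside -0.03 for all tested genes, of which 3148 were negative and 3007 positive. Without NR replicate 1 only 3 of the 7 were negative and the median was 0.13. Of the 7 tested members 5 were at 1 FPKM or more in every library, beside 1751 of the 6155 tested genes. The SEs of the members' differences, 0.71 to 1.73 on the log2 scale, were larger than the difference itself for 4 of the 7 (Hmgcs1, Idi1, Fdps and Fdft1). Cyp51, Insig1 and Msmo1 had differences larger than their SE and did not pass either. Over all tested genes differences ran from -6.73 to 6.58 and none passed. At 3 libraries a group no difference was therefore detected in the members, and what size of effect could have been detected was not tested.

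**Figure D3:**
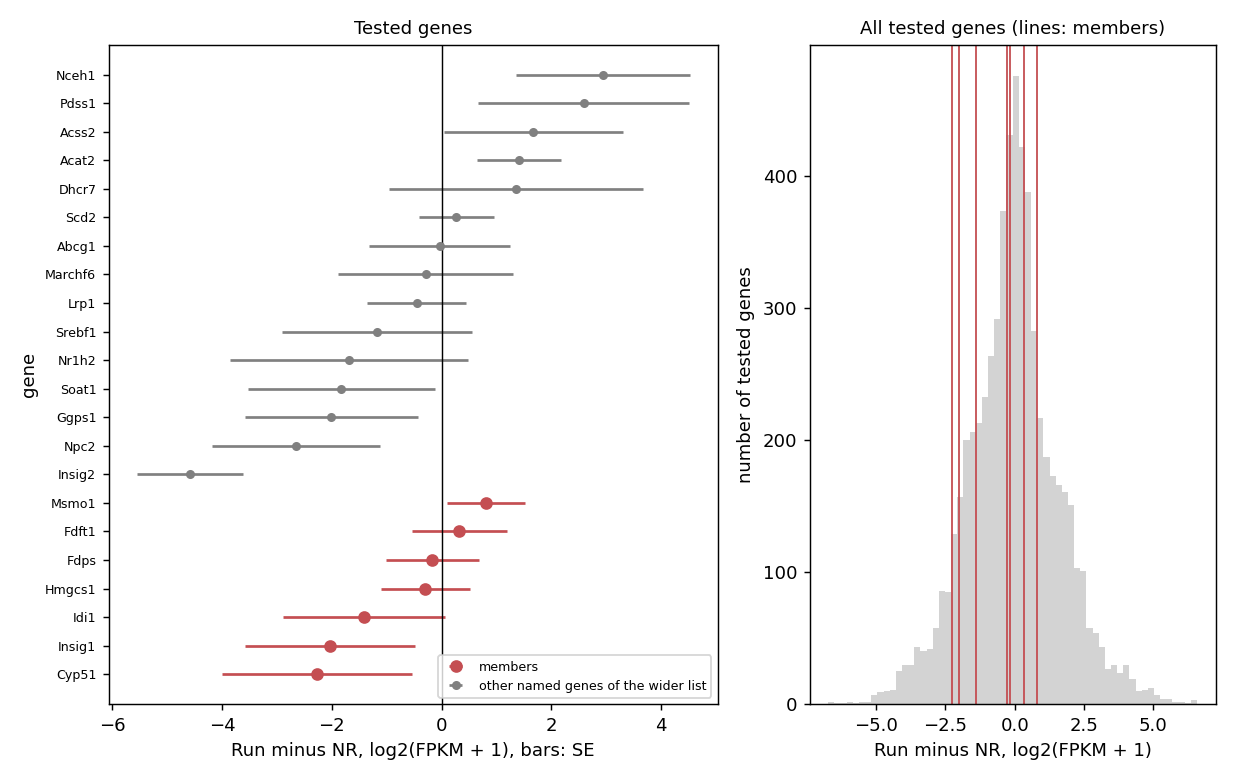
Left, difference between the groups (Run minus NR, in log2 of FPKM + 1) with its SE for the 7 tested members (red) and 15 other tested genes of the wider sterol list that are named in the text (grey), from 3 libraries per group; right, the distribution of the same difference over all 6155 tested genes, with red lines at the members. The members lie between -2.27 and 0.81, inside the bulk of all genes, and Insig2 at -4.58 is the lowest of those drawn.

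The rest of the pathway was read from a list of 64 genes arranged by role, the members among them. Of the 55 genes that are not members, 24 could be tested, 0 passed at an adjusted p under 0.05, and 11 had positive and 13 negative differences with a median of -0.03. A total of 8 stayed below 1 FPKM in every library. At an unadjusted p under 0.05 (limma) there was 1 of the 24, Insig2, beside 4.94% of all 6155 tested genes, so the list did not stand out.

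Insig2, the close relative of Insig1 that also anchors the sterol-regulated factor, had 32.7, 19.3 and 19.9 FPKM in the NR libraries against 0.0375, 0 and 0 in the Run libraries. Every NR library lay above every Run library, and 4.19% of tested genes likewise had groups that did not overlap with Run below. Insig2 reached 1 FPKM in the 3 NR libraries alone, so it passed the filter only through the group where it was high. The separation of its groups followed from that and is no added support. The log2 difference was -4.58 ± 0.97 (SE) with a limma adjusted p = 0.244, which ranged from 0.0619 to 0.754 over the alternative settings, so it did not pass under any of those run. Fitted differences of a gene near 0 in a group depend on the value added before taking logs, and this one was -7.71 with 0.1 added and -2.50 with 5 added. Insig1 had its lowest value in Run too, but was not close to 0 in Run replicates 1 and 3, and the difference between the genes was not tested.

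Of the other mevalonate genes, Acat2, the cytosolic thiolase that starts the pathway, had 19.3, 27.7 and 18.1 FPKM in the NR libraries against 60.3, 39.9 and 81.0 in the Run libraries. Every Run library was above every NR library, as was the case for 4.76% of tested genes, with a log2 difference of 1.40 ± 0.77 (SE; limma adjusted p = 0.978). Mvk was listed at 0 in all 6 libraries. Mvd, the decarboxylase before Idi1, had 58.7 FPKM in NR replicate 1 and 69.2 in Run replicate 3, the same libraries in which Hmgcs1, Idi1 and Fdps were highest, and at most 0.0461 elsewhere (a gene singled out after its values were seen). In the mevalonate group, 5 of 8 genes were tested, 1 positive and 4 negative.

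In the squalene and sterol group 9 of 13 genes were tested, 6 positive and 3 negative, and 0 passed. Dhcr7, the last reductase of a main branch, was listed at 0, 74.2 and 0 FPKM in the NR libraries against 0.0990, 19.6 and 54.7 in the Run libraries. Lss, which closes squalene epoxide into lanosterol, had 11.2, 17.4 and 0.0309 FPKM in NR and was listed at 0 in all 3 Run libraries, with too few values for the test (chosen after its values were seen).

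Of the 7 genes of factor processing 3 were tested, all with negative differences (Insig1, Insig2 and Srebf1). Srebf1, the related factor of fatty acid genes, had 0, 35.2 and 12.4 FPKM in the NR libraries against 0, 2.16 and 12.3 in the Run libraries, a log2 difference of -1.18 ± 1.73 (SE). Scap, the escort that Insig proteins hold, reached 1 FPKM in Run replicate 1 alone, where it had 30.6. In the group of sterol-dependent protein degradation 3 of 7 were tested, 1 positive and 2 negative. Marchf6, a ubiquitin ligase for squalene epoxidase, had 3.02, 8.61 and 14.9 FPKM in the NR libraries against 0.00705, 17.8 and 16.9 in the Run libraries.

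Genes that move, store or use sterols were as uneven. Npc2, which carries cholesterol out of lysosomes, had 28.2, 42.5 and 64.9 FPKM in the NR libraries against 0.0268, 43.9 and 6.30 in the Run libraries, a log2 difference of -2.65 ± 1.53 (SE), and the uptake receptor gene Lrp1 had 4.03, 2.80 and 0 FPKM in the NR libraries against 0, 0.293 and 4.72 in the Run libraries. The oxysterol receptor gene Nr1h2 had 0, 43.6 and 29.1 FPKM in the NR libraries against 39.3, 0 and 0 in the Run libraries, and the exporter gene Abcg1 had 1.11, 6.95 and 0 FPKM in the NR libraries against 0, 0 and 14.5 in the Run libraries. Both uptake genes and both efflux genes that could be tested had negative differences, as did 3148 of the 6155 tested genes. Those of Lrp1 (-0.46 ± 0.90, SE), Nr1h2 (-1.69 ± 2.16) and Abcg1 (-0.04 ± 1.28) were smaller than their SE.

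Cyp46a1, the neuronal hydroxylase by which brain cholesterol leaves, was above 1 FPKM in NR replicate 3 (28.4) and Run replicate 1 (46.0) alone. Those are also the only libraries with Srebf2 at 1 FPKM or more, a match of sparsely detected genes that was noticed after the values were seen and was not tested. Nceh1, a hydrolase of cholesterol esters, had 19.9, 0 and 0 FPKM in the NR libraries against 28.1, 13.8 and 20.95 in the Run libraries, a log2 difference of 2.94 ± 1.58 (SE; limma adjusted p = 0.978). Soat1, which forms the esters, had 39.1, 0.213 and 10.9 FPKM in the NR libraries against 11.9, 0.0139 and 0.00207 in the Run libraries. In the branches that leave the pathway, Ggps1, the maker of geranylgeranyl diphosphate, had 37.7, 32.6 and 44.1 FPKM in the NR libraries against 14.7, 0.0105 and 55.9 in the Run libraries, and Pdss1 of ubiquinone synthesis had 0, 8.83 and 0 FPKM in the NR libraries against 0.0177, 27.2 and 73.1 in the Run libraries. Of the fatty acid genes, Scd2, the main brain desaturase, was present throughout at 35.1, 116 and 62.7 FPKM in the NR libraries against 79.8, 62.7 and 90.5 in the Run libraries, and Acss2, which makes acetyl-CoA from acetate, had 39.5, 0 and 37.2 FPKM in the NR libraries against 48.9, 19.1 and 48.6 in the Run libraries. All 3 tested fatty acid genes had positive differences, as did 3007 of the 6155 tested genes, and 0 passed. The differences were 0.27 ± 0.69 (SE) for Scd2, 1.67 ± 1.63 for Acss2 and 0.36 ± 1.52 for the remaining gene.

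**Figure D4:**
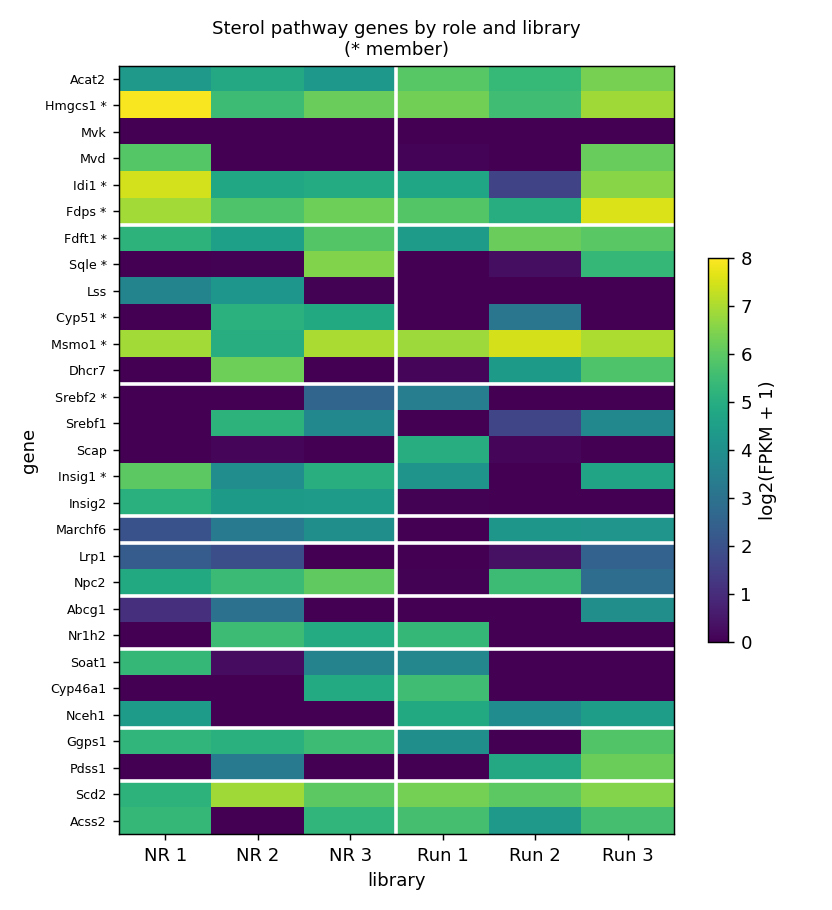
Level of the 9 members and of 20 other genes of the wider sterol list that are named in the text, as log2(FPKM + 1), with a row per gene, a column per library, horizontal white lines between role groups and a vertical white line between NR and Run. Members carry an asterisk. Hmgcs1, Idi1, Fdps, Fdft1 and Msmo1 have values in every library, whereas most other genes drawn are under 1 FPKM in at least 1 library of each group, and Insig2 reaches 1 FPKM in the NR libraries alone.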

How the data were processed

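Polyadenylated RNA of sorted tdTomato-positive cells was measured in 6 Smart-seq2 libraries, 3 per group, which the labels place in 1 batch. The authors deposited gene-level FPKM values in 1 table. Trimmomatic 0.39, STAR 2.7.5c, StringTie 2.1.7 and build mm10 are named in the submitters' processing notes. The role of each tool and the annotation are not given in the sources used here. Each column was matched to the only sample whose library name begins with the column's name. All 6 library names carry a further suffix, -2, that the columns lack and whose meaning is not given, so the match rests on the shared beginning. Smart-seq2 has no molecular identifiers, so PCR copies count as fragments.

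The 6155 genes that reached 1 FPKM in 3 or more libraries were tested on log2(FPKM + 1), Run against NR, with limma 3.58.1 in R 4.3.3 (mean-variance trend, 2-sided, Benjamini-Hochberg adjustment over all tested genes, threshold 0.05). Alternatives changed the pseudocount, filter, scaling, trend and replicate block and left out each library. Gene coordinates came from GENCODE M21, promoters from RefSeq, and near-identical transcripts (at least 95% over 200 bases) from blastn 2.17.0. All pairs of libraries differed in at least 99.99% of values above 0.

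The members, lists, alternatives and the rule for named genes were chosen with earlier results of these data known. Named were all members, up to 2 genes of smallest p per role group, fixed pathway genes, 5 nearest profiles, and the few stated as chosen later. Some genes that this rule names are not reported here. March6 was read under its current symbol Marchf6.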

Additional observations from a re-analysis of the deposited data

How the results depend on the processing

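No member, no gene of the wider sterol list and no gene of the table passed an adjusted p under 0.05 under any of the 14 alternatives. Signs of single members did depend on 1 library. Without 1 library at a time Hmgcs1 lay between -0.81 and 0.40 (log2), Fdps between -0.89 and 0.42 and Fdft1 between -0.01 and 0.89 (-0.0131 without NR replicate 2), while Idi1, Cyp51, Insig1 and Msmo1 kept their sign in every alternative that could test them. The count of negative members, 5, was 3 to 6 without 1 library and 3 (of 5 tested) when FPKM of at least 1 was asked in all libraries, because fewer genes were tested. That filter left 60 genes in place of 301 past the looser rule (unadjusted p under 0.05 and a difference of 1 or more in size), and 0 in place of 1 on the wider list (unadjusted p under 0.05), where no filter gave 2 and leaving out 1 library gave 1 to 3. Whether the numbers pair the libraries was not settled. Deviations of same-numbered libraries from their group means correlated at 0.0211, 0.00416 and 0.0179 over genes. These values are small, although each library correlated best with its own number. With the replicate block the looser count was 248, no gene passed and Insig2 had an adjusted p = 0.754. Rescaling to equal sums and quantile normalization moved the median of all genes by -0.01 and 0.05. Depth is unknown, and at 3 libraries a group the spread between libraries limits what can be seen.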

Other observations

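The processed pseudogene Gm6781, 97.4% identical to Fdft1 over 1249 bases, had 0.867, 0.393 and 0.907 FPKM in the NR libraries against 0.217, 1.07 and 1.02 in the Run libraries, which was 1.10% to 2.48% of the Fdft1 level in the same library.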
